A study of Mus musculus with 6 samples.

Results

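The genes described here encode the mitochondrial respiratory chain and ATP synthase of mouse CD8+ T cells. Members were chosen by gene symbol, with earlier results of these data known. They were every gene whose symbol begins with Nduf, Uqcr, Cox4, Cox5, Cox6, Cox7, Cox8 or Atp5, together with Sdha, Sdhb, Sdhc, Sdhd, Cyc1 and Cycs. With 1 probe set per gene, the one brightest over all arrays, 91 of the 22180 genes with a probe set of a single symbol were members. Of the 91, 72 are generally expressed subunits or the carrier cytochrome c, 8 are assembly factors of complex I and 8 are complex IV paralogs of restricted expression. The remaining 3 are Cox7a2l, a factor of chain supercomplexes, and the pseudogenes Atp5c1-ps and Uqcrh-ps1.

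Splenic naive CD8+ T cells received antibodies to CD3 (1 µg/ml) and CD28 (3 µg/ml) over 4 days. For 3 of those days the Tc1 cultures held IL-12 and the Tc17 cultures held IL-6 and TGFb, and both received IL-2 on the further day. The sources used here do not give strain, genotype, age or sex of the mice. Each group had 2 biological samples, and each group had a further array labelled as a technical replicate with the number 2, which made 6 Affymetrix arrays of total RNA. The labels do not state which RNA the technical array measured; it was read as a repeat of sample 2 from its number and averaged with it, so each comparison set 2 samples against 2. The labels do not say whether the samples came from separate animals, so p-values measure the spread between these samples, which may be technical.

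The respiratory chain passes electrons from NADH (complex I) and succinate (complex II) through ubiquinone, complex III and cytochrome c to oxygen at complex IV, and pumps protons on the way. ATP synthase, complex V, uses the proton gradient to make ATP. Activated T cells rely heavily on glycolysis but keep respiration running, and the balance is known to differ between effector and memory states.

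The expression of the chain differed little between Tc17 and Tc1, and a single member passed the test. Cox7a1, the heart and muscle form of a complex IV subunit, rose 3.09-fold in Tc17. It was 1 called member of 91, against 1.58% called over all genes (0.992% higher and 0.591% lower in Tc17), 2.58% of genes brighter than the median of all values and 1.01% of all probe sets. No other member passed. On the log2 scale 89 of the 91 differences lay within 0.5 of 0, as did 20729 of all 22180 genes. Within 0.25 of 0 lay 87.9% of the members and 82.2% of all genes. Most differences were small and negative: 64 of 91 (70.3%) were below 0, against 54.2% of all genes and 49.5% of genes brighter than the median of all values. The median difference was −0.09 over the members and −0.01 over all genes, and no set test was made of it. In bulk RNA, fewer cells of a type and less RNA per cell cannot be told apart.

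The culture labels and cell identity were checked on marker genes. In Tc17, Il17a rose 37.0-fold and Il17f 67.9-fold, while Ifng fell 45.1-fold (each called in limma's test). The 6 measured T cell markers averaged 12.32 to 12.40 (log2 intensity) on the Tc1 arrays and 12.36 to 12.44 on the Tc17 arrays. Of these, Cd8a and Cd8b1 mark CD8 cells and the others T cells more widely. The 3 measured B cell markers averaged 6.66 to 6.72 in Tc1 and 6.78 to 6.92 in Tc17, and none passed. These averages join unlike levels: Cd79b measured 9.8 in Tc1 and 10.32 in Tc17, Cd79a 6.05 and 6.06, and Ms4a1 4.26 and 4.21. Among them Cd79b differed by 0.52, Cd79a by 0.02 and Ms4a1 by −0.06. Cd4 differed by −0.06, and the NK cell markers Ncr1 and Klrb1c by 0.01 and 0.04. The array medians lay between 6.04 and 6.09, and without a detection call a low value may hold no transcript signal. Of the 91 members, 84 were brighter than the median of all values. The 5 myeloid markers averaged 5.57 to 5.74 in Tc1 and 6.41 to 6.63 in Tc17, and of these Lyz2 alone passed (11.5-fold higher in Tc17, limma adjusted p = 0.00594). The differences of Itgam, Csf1r, Adgre1 and Cd14 were 0.09, 0.28, 0.38 and 0.25, and Adgre1 and Cd14 lay below the median of all values in both groups. The part of that shift in any result below was not tested.

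**Figure D1:**
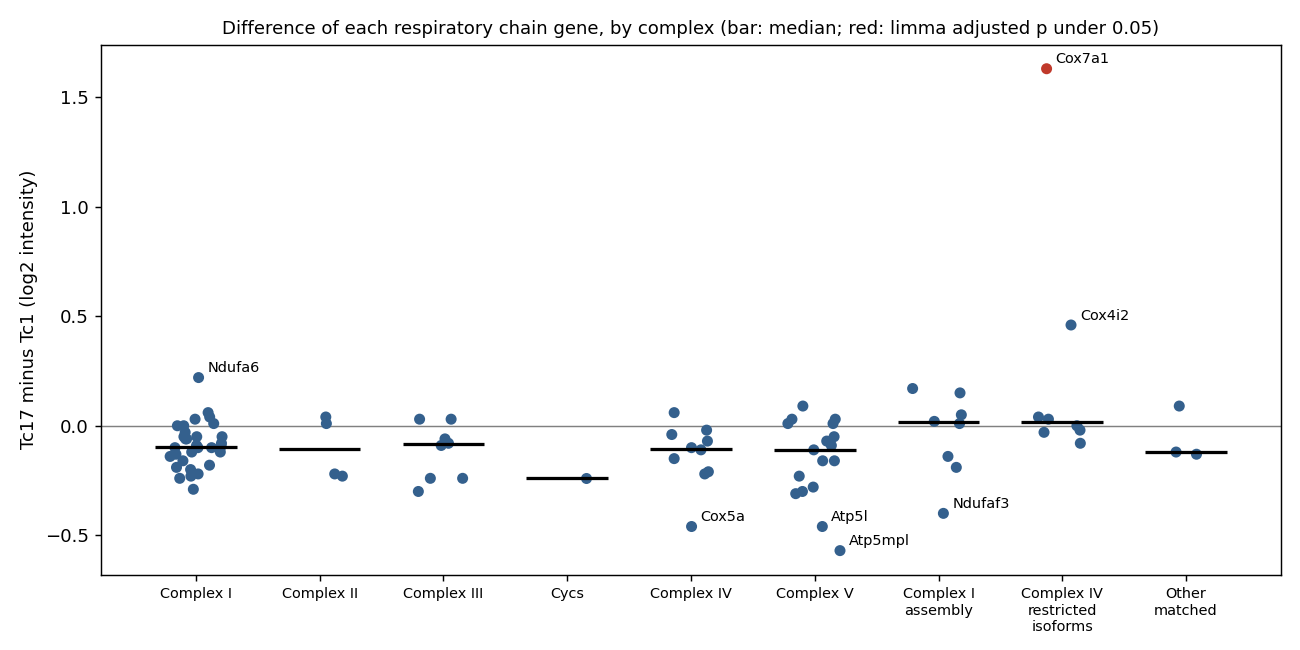
Difference between Tc17 and Tc1 (log2 intensity, vertical axis) for each of the 91 genes, grouped by complex and class along the horizontal axis. Black bars are group medians, and red marks the gene with a limma adjusted p under 0.05. Cox7a1 stands at 1.63 while the medians of complexes I to V lie between −0.11 and −0.09.

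The promoter sequences of Cox7a1 and of its generally expressed paralog Cox7a2 are shown because one rose and the other did not. Each is the 250 bases before the RefSeq transcription start, 5′ to 3′ on the gene's strand, in assembly GRCm38.p6. Cox7a1 lies on the plus strand at chr7:30183921-30184170 and Cox7a2 on the minus strand at chr9:79759854-79760103.
Cox7a1: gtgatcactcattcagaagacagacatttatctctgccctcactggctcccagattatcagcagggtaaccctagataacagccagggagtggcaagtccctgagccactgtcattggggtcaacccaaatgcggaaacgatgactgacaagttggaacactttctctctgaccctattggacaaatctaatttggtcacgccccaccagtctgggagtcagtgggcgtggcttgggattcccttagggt
Cox7a2: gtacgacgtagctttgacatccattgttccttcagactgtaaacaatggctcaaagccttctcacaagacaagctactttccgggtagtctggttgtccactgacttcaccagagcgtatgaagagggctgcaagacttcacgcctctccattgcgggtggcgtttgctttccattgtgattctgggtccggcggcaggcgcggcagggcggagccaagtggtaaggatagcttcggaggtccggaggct
The Cox7a1 window held 4 CG dinucleotides and had a GC content of 51.2%, and the Cox7a2 window held 14 with 54.8%. Over the 73 members with a promoter in the RefSeq table the medians were 15 CG dinucleotides and 57.6% GC. Over all 27025 genes in that table they were 6 CG dinucleotides and 52% GC.

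Promoters of the members were searched for motifs of a pair of activators long associated with respiratory genes. These were the core of the NRF1 site, GCGCATGC, and the site of ETS factors such as GABP, CCGGAAGT, on either strand of the window from 250 bases before to 50 after the start. The NRF1 core was found in 13 of 73 members (17.8%), against 3.05% of all genes in the table. The ETS letters were found in 5 of 73 (6.85%), against 4.31% of all genes, and Uqcr11 held both. Neither was found in the windows of Cox7a1 or Cox7a2. Members with the NRF1 core differed between Tc17 and Tc1 by −0.46 (Atp5l) to 0.22 (Ndufa6), with a median of −0.14, while the 60 without it had a median of −0.09. Over all genes tested those medians were 0.01 with the core and −0.01 without it. Both motifs hold a CG dinucleotide, and the 250 bases before the start held a median of 15 in members against 6 over all genes in the table. The part of base composition in the motif shares was not tested. A match describes letters in a window and does not show binding. The following windows show the match in capitals for members with the core (ETS site for Uqcr11), chosen to span that range of differences, up to the start site at most.
Atp5l (chr9:44920963-44920992, minus strand): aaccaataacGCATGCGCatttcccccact
Cycs (chr6:50566610-50566641, minus strand): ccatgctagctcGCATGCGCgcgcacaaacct
Atp5k (chr5:108434428-108434461, minus strand): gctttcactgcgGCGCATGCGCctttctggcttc
Sdhb (chr4:140961205-140961236, plus strand): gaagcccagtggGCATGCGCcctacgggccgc
Cox6a1 (chr5:115349099-115349132, minus strand): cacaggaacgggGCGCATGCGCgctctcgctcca
Atp5g2 (chr15:102671068-102671101, minus strand): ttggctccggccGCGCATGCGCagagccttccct
Ndufa6 (chr15:82354355-82354386, minus strand): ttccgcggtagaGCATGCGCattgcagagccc
Uqcr11 (chr10:80406868-80406899, minus strand): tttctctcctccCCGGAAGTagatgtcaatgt
Where the core and its reverse complement overlapped, the capitals cover both. Members with the same letters thus lay on both sides of 0.

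Cox7a1 measured 8.0 in Tc1 sample 1 and 8.31 and 8.15 on the arrays of Tc1 sample 2. In Tc17 it measured 9.89 in sample 1 and 9.77 and 9.42 on the arrays of sample 2 (all log2 intensity, probe set 17476288). Every Tc17 array lay more than 1 log2 unit above every Tc1 array. The means were 8.11 ± 0.16 in Tc1 and 9.74 ± 0.21 in Tc17 (SD, n = 2), a difference of 1.63 ± 0.14 (SE, limma adjusted p = 0.026). A larger increase was found for 112 of the 22180 genes. The call was kept under all 9 alternatives that used all 4 biological samples (limma adjusted p from 0.0015 to 0.0294). The lowest came from 6 separate arrays, which counts each technical array as a further sample. With the replicate block, the eBayes settings, the filter and averaged probe sets the Cox7a1 values and the difference of 1.63 were unchanged. Those settings are thus not independent checks of it. Of the 5 myeloid markers Lyz2 also rose in Tc17, and its part in the Cox7a1 increase was not tested. The call was lost when any 1 of the 4 samples was left out, where the difference ran from 1.48 to 1.78 and the limma adjusted p from 0.0721 to 0.129.

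Complex IV, cytochrome c oxidase, carries several subunits that exist as paralogs, and in its COX7A family the Tc17 increase was that of the muscle form. Cox7a2, the form found in most tissues, measured 12.07, 11.97 and 12.01 on the Tc1 arrays and 11.93, 12.02 and 11.83 on the Tc17 arrays. The groups overlapped, and its difference was −0.11 ± 0.08 (SE, limma adjusted p = 0.653). Cox7a2l differed by −0.12 ± 0.10 (SE, limma adjusted p = 0.718). The difference between paralogs was not tested, and the level of one probe set cannot be set against that of another.

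Cox4i2, the lung-enriched paralog of subunit 4 that is known for a part in oxygen sensing, had the second-highest difference among the members, 0.46 ± 0.07 (SE). It measured 7.46, 7.59 and 7.39 on the Tc1 arrays and 7.96, 7.96 and 7.86 on the Tc17 arrays. The groups did not overlap, but it did not pass (limma adjusted p = 0.0951), and it passed in 3 of 13 alternatives. Cox4i1, the general form, differed by −0.10 ± 0.14 (SE), with overlapping groups.

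The other restricted paralogs stayed within 0.1 of 0. Cox6a2, a muscle form, differed by 0.03 ± 0.09, and its general counterpart Cox6a1 by −0.04 ± 0.07 (SE). The testis forms Cox6b2, Cox7b2 and Cox8c differed by −0.00, −0.08 and −0.02, and the muscle form Cox8b by 0.04. Ndufa4l2, the paralog of Ndufa4 that is induced by hypoxia, differed by −0.03. Cox7b2, Cox8b, Cox8c and Ndufa4l2 lay below the median of all values in both groups, so their differences may hold no transcript signal. None of these 6 passed, and their limma adjusted p ran from 0.738 (Cox7b2) to 0.999 (Cox6b2).

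Of the 10 generally expressed subunits of complex IV, 9 had a difference below 0 and none passed. At an unadjusted limma p of 0.05, 2 were lower, against 6.79% of all genes. Cox5a, a nuclear-encoded subunit on the matrix side, had the lowest value of the complex. It measured 11.09, 10.83 and 10.89 on the Tc1 arrays and 10.55, 10.50 and 10.49 on the Tc17 arrays. The groups did not overlap, and the difference was −0.46 ± 0.11 (SE, limma adjusted p = 0.186). It ran from −0.57 to −0.34 when 1 sample was left out, and passed in 2 of 13 alternatives (limma adjusted p = 0.0316 with 6 separate arrays and 0.0368 with the sample as a random block). Cox5b differed by −0.22 ± 0.10 and Cox6b1 by −0.21 ± 0.08 (SE), with no overlap between the arrays of either gene. The other probe set of Cox5b gave −0.04. Cox8a, the general form of the smallest subunit family, differed by −0.07 ± 0.07 (SE). Ndufa4, once counted in complex I and now placed in complex IV, differed by −0.15 ± 0.20 (SE), and its Tc1 samples differed by more than its groups: 9.97 in sample 1 against 9.56 and 9.43. Cox7b, at −0.02 ± 0.09 (SE), was the closest to 0 in the complex, but its other probe set gave −0.25.

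**Figure D2:**
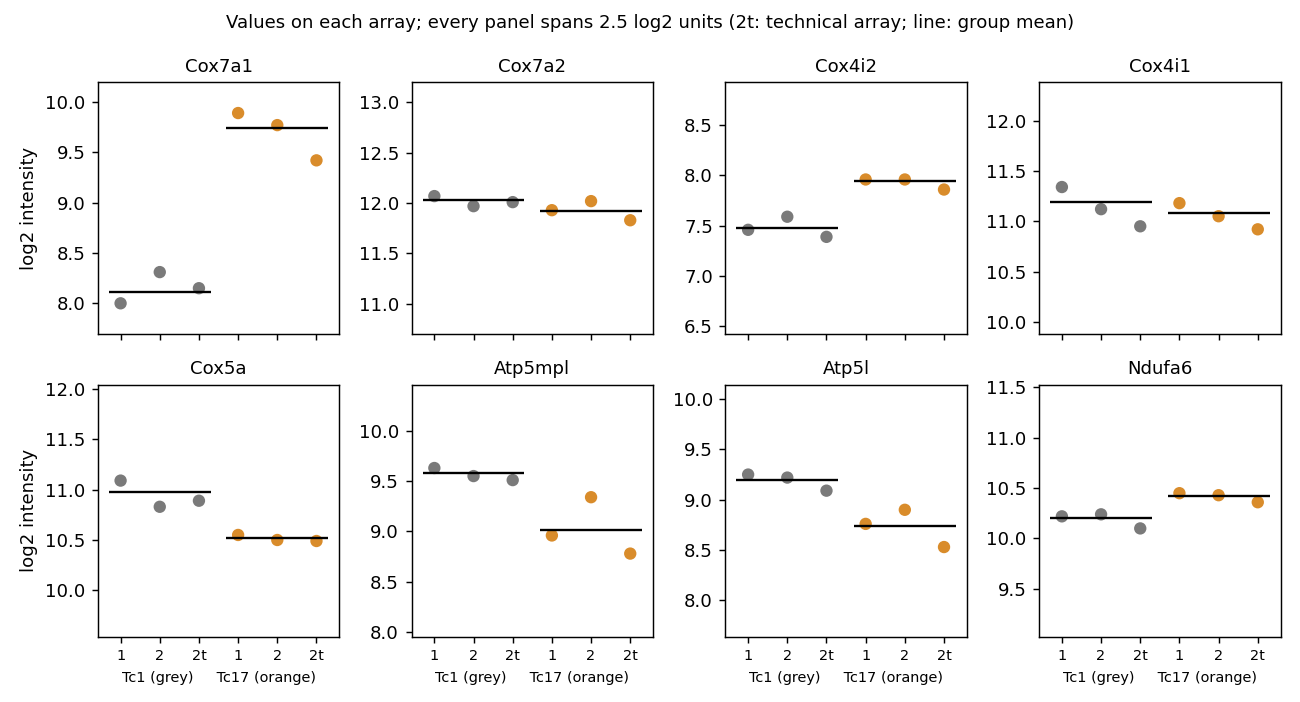
Log2 intensity of 8 named genes on each of the 6 arrays (grey Tc1, orange Tc17; 2t is the technical array of sample 2), with lines at the group means. Cox7a1 separates by 1.63, while Cox7a2 and Cox4i1 overlap between groups.

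Complex I, the NADH dehydrogenase, was represented by 32 subunits. Of these, 25 had a difference below 0, the median was −0.09, and none passed (2 lower and 1 higher at an unadjusted p of 0.05; of all genes 15.9% were under that threshold, 6.79% lower and 9.1% higher). The 6 measured core subunits, most of which hold the flavin or iron-sulfur clusters, had a median of −0.06, and the 26 accessory subunits a median of −0.10. Ndufb3 and Ndufb7, accessory subunits of the membrane arm, differed by −0.29 ± 0.13 and −0.24 ± 0.08 (SE). Ndufb7 measured 10.39, 10.30 and 10.25 in Tc1 and 10.13, 10.02 and 10.07 in Tc17, with no overlap. Ndufa5, at −0.23 ± 0.15 (SE), overlapped between the groups. Ndufa6, an accessory subunit of the LYR protein family, went the other way. It measured 10.22, 10.24 and 10.10 in Tc1 and 10.45, 10.43 and 10.36 in Tc17, a difference of 0.22 ± 0.08 (SE) short of the threshold (limma adjusted p = 0.327). The core subunit Ndufs3 was the closest to 0 (0.00 ± 0.07, SE).

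The 8 assembly factors of complex I, proteins that build the enzyme without staying in it, had a median of 0.01 and no call. Ndufaf3 measured 11.04, 10.89 and 10.79 in Tc1 and 10.57, 10.55 and 10.48 in Tc17. Its groups did not overlap, with a difference of −0.40 ± 0.10 (SE, limma adjusted p = 0.206). It passed in 1 of 13 alternatives, with 6 separate arrays (limma adjusted p = 0.0441). Ndufaf4 differed by 0.17 ± 0.19 and Ndufaf7 by −0.19 ± 0.12 (SE), both with overlapping groups.

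Complex II, succinate dehydrogenase, is shared with the citric acid cycle and has 4 subunits, with 2 differences below 0 and 2 above, and none passed. The flavoprotein Sdha differed by 0.01 ± 0.07 and the membrane anchor Sdhc by 0.04 ± 0.07 (SE). The iron-sulfur subunit Sdhb measured 10.52, 10.41 and 10.40 in Tc1 and 10.27, 10.26 and 10.17 in Tc17. The other membrane anchor, Sdhd, measured 10.97, 10.86 and 10.87 in Tc1 and 10.67, 10.74 and 10.65 in Tc17. In both genes the arrays did not overlap, with differences of −0.22 ± 0.08 and −0.23 ± 0.08 (SE) that did not pass (limma adjusted p = 0.374 and 0.325).

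Complex III, the cytochrome bc1 complex, had 8 subunits with a median of −0.09, of which 6 were below 0 and none passed. At an unadjusted limma p of 0.05, 2 were lower, against 6.79% of all genes. Uqcrfs1, the Rieske iron-sulfur protein, measured 9.46, 9.37 and 9.44 in Tc1 and 9.27, 9.15 and 9.09 in Tc17, a difference of −0.24 ± 0.09 (SE, limma adjusted p = 0.372). Uqcr11, a small accessory subunit, measured at least 9.72 on each Tc1 array and 9.61, 9.63 and 9.49 in Tc17, a difference of −0.30 ± 0.11 (SE, limma adjusted p = 0.359). Neither gene's groups overlapped. Uqcrq differed by −0.24 ± 0.12 (SE) with overlap. Cyc1, the cytochrome c1 subunit, differed by −0.08 ± 0.08, and the scaffold subunits Uqcrc1 and Uqcrc2 by −0.09 ± 0.09 and 0.03 ± 0.08 (SE).

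Cycs, the mobile carrier cytochrome c that also triggers apoptosis when released, measured 12.51, 12.27 and 12.37 in Tc1 and 12.17, 12.27 and 12.09 in Tc17. The groups met at 12.27, and the difference was −0.24 ± 0.09 (SE, limma adjusted p = 0.394). Its 4 other probe sets gave −0.24, −0.21, −0.21 and −0.19, the middle pair with identical values. Cycs has many processed copies in the mouse genome, so its probe sets may not measure separate transcripts.

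Complex V, ATP synthase, had 17 measured subunits with a median of −0.11. Of these 12 were below 0 and none passed. At an unadjusted limma p of 0.05, 5 were lower, against 6.79% of all genes. The lowest values of all members belonged to small subunits of its membrane part. Atp5mpl, the 6.8 kDa proteolipid, measured 9.63, 9.55 and 9.51 in Tc1 and 8.96, 9.34 and 8.78 in Tc17. Its groups did not overlap, and the difference was −0.57 ± 0.08 (SE, limma adjusted p = 0.0822). Atp5l, subunit g, which takes part in dimer formation, measured 9.25, 9.22 and 9.09 in Tc1 and 8.76, 8.90 and 8.53 in Tc17. That difference was −0.46 ± 0.08 (SE, limma adjusted p = 0.108), again without overlap. In both genes the technical array of Tc17 sample 2 read lower than the array of that sample. Atp5mpl passed in 2 and Atp5l in 1 of 13 alternatives. With the replicate number as a block Atp5mpl was called (−0.57, limma adjusted p = 0.0468). Without the technical arrays Atp5mpl differed by −0.44 (limma adjusted p = 0.355) and Atp5l by −0.40 (limma adjusted p = 0.202).

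The 3 genes of the proton-carrying c subunit encode the same mature protein with different import sequences, and their values did not run together. Atp5g1 measured 7.10, 7.12 and 7.12 in Tc1 and 6.91, 6.54 and 6.89 in Tc17, a difference of −0.30 ± 0.09 (SE, limma adjusted p = 0.3) without overlap. Atp5g2 differed by 0.01 ± 0.07 and Atp5g3 by −0.16 ± 0.10 (SE). The difference between these genes was not tested. The 5 subunits of the catalytic F1 head had a median of −0.05 and the 12 of the membrane part and stalk −0.13. Atp5o, the stalk subunit known for oligomycin sensitivity, differed by −0.31 ± 0.16 (SE) with overlapping groups.

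Across the members, 22 had Tc17 arrays all below the Tc1 arrays and 4 had them all above. Over all genes such separation was found in 29.7%, of which 14.5% were below and 15.2% above, so 24.2% and 4.40% of the members compare with those shares. Among genes brighter than the median of all values the shares were 17.7% and 21.8%, and among the 84 members that bright 26.2% and 4.76%. Of the 72 subunits 55 were below 0 and none passed in limma's test. At an unadjusted limma p of 0.05, 13 of them were lower and 1 higher, where 6.79% of all genes were lower and 9.1% higher. Of the 13326 genes brighter than the median of all values, 1285 were lower and 1826 higher at that threshold. The SE of the 72 subunits ran from 0.07 to 0.20 with a median of 0.08. The medians by complex were −0.09 (I), −0.11 (II), −0.09 (III), −0.10 (IV) and −0.11 (V), and each stayed below 0 after quantile normalization and median centring. The deposited arrays already had medians between 6.04 and 6.09, so centring could change these values little.

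The negative shift was not carried evenly by the samples. Relative to the mean of the 4 samples, the 72 subunits had a median of 0.10 in Tc1 sample 1 and 0.00 in Tc1 sample 2, and of −0.04 and −0.06 in Tc17 samples 1 and 2. Tc1 sample 1 held the highest value of the 4 samples for 59 of 91 members (64.8%), against 28.3% of all genes. Between samples of the same number, Tc17 was lower by a median of 0.13 for the samples numbered 1 and of 0.05 for those numbered 2. Without Tc1 sample 1 the member median was −0.04 and 57 of 91 were below 0, and without Tc1 sample 2 they were −0.12 and 74.

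The same sample stood high in other gene families that were picked after these values had been seen. Tc1 sample 1 held the highest value for 77.8% of 63 cytosolic ribosomal protein genes and 81.6% of 38 proteasome genes. Their medians between Tc17 and Tc1 were −0.05 and −0.09, with 79.4% and 84.2% of differences below 0. Over all genes the median of Tc1 sample 1, relative to the mean of the 4 samples, was 0.00. The part that this sample has in the members' shift was not tested.

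**Figure D3:**
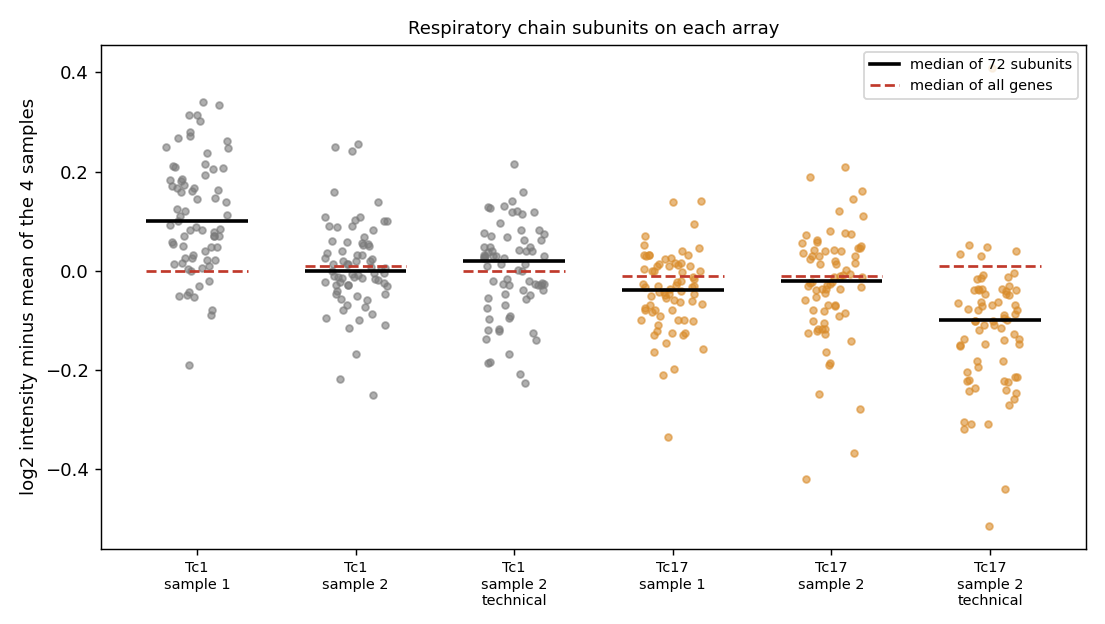
Log2 intensity of the 72 subunits on each of the 6 arrays, as the deviation from the mean of the 4 biological samples (points). Black bars are medians of the subunits and red dashed lines medians of all genes. Tc1 sample 1 lies at a median of 0.10 and the technical array of Tc17 sample 2 at −0.10.

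Other mitochondrial genes were read from 8 lists beside the members, and 1 of their genes passed, where 1.58% of all genes did. Mitochondrial ribosomal proteins (71 genes) had a median of −0.07 with 52 below 0, and the citric acid cycle and pyruvate dehydrogenase (17 genes) a median of −0.08 with 12 below 0. Assembly factors outside the rule (39 genes) had a median of 0.05, cristae and dynamics genes (12) 0.03, other electron donors to ubiquinone (8) −0.01 and biogenesis regulators (20) −0.02. None of these genes passed. Several of these medians moved with single samples. Without Tc1 sample 1 the median of the mitochondrial ribosomal proteins was 0.01 and that of the citric acid cycle list −0.01, and without Tc1 sample 2 they were −0.14 and −0.16. For the electron donors the corresponding medians were 0.16 and −0.11, and for ubiquinone and heme synthesis 0.24 and −0.00. The cristae and dynamics median ran from −0.02 to 0.03, the assembly factors' from 0.00 to 0.06 and the regulators' from −0.05 to −0.02 with 1 sample left out. Inner membrane carriers and related genes (12) had a median of 0.08, with 10 above 0. The 13 subunits encoded by mitochondrial DNA were not analysed here.

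Cpox, an enzyme of the synthesis of heme, the cofactor of the cytochromes, rose 2.18-fold among 15 genes of ubiquinone and heme synthesis (median 0.09). It measured 9.49, 9.38 and 9.44 in Tc1 and 10.64, 10.47 and 10.53 in Tc17, a difference of 1.12 ± 0.09 (SE, limma adjusted p = 0.0205). No gene of the 8 lists passed when any 1 sample was left out. The later enzymes of the same pathway, Fech and Ppox, differed by 0.45 ± 0.10 and 0.29 ± 0.10 (SE) and did not pass. Sqor, which feeds electrons from sulfide to ubiquinone, differed by 0.99 ± 0.13 (SE, limma adjusted p = 0.0674).

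Among the regulators, Tfb2m, a mitochondrial transcription factor, and Polg, the polymerase of mitochondrial DNA, differed by 0.43 ± 0.15 and 0.37 ± 0.11 (SE). Ttc19 and Lyrm7, both factors of complex III, had differences of opposite sign, 0.56 ± 0.15 and −0.48 ± 0.13 (SE). Mrpl18, a mitochondrial ribosomal protein gene, differed by −0.60 ± 0.08 (SE, limma adjusted p = 0.0588). Fh1 (fumarase) and Pdhx differed by −0.31 and −0.27, and Mpc1, part of the mitochondrial pyruvate carrier, by 0.27. None of these genes passed.

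**Figure D4:**
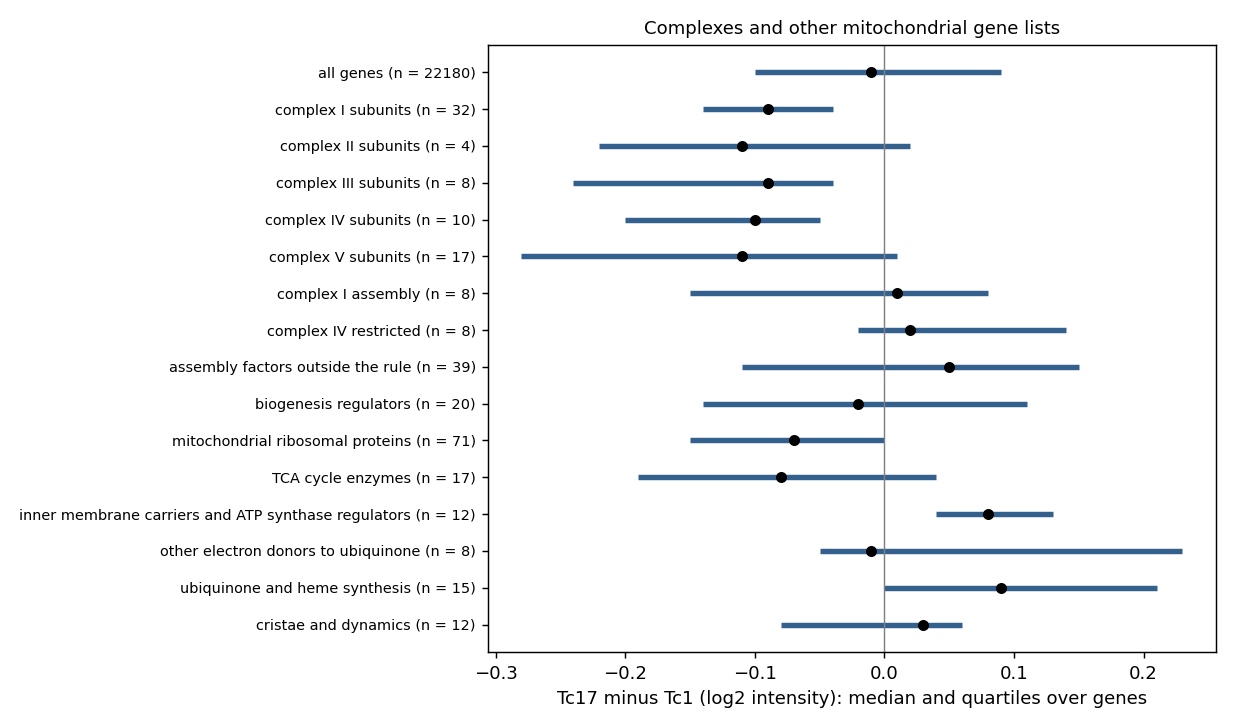
Median (dot) and quartiles (bar) of the difference between Tc17 and Tc1 (log2 intensity) over the genes of each complex and list, with the number of genes in brackets. The complexes lie at −0.11 to −0.09 and the mitochondrial ribosomal proteins at −0.07, against −0.01 for all genes.

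**Figure D5:**
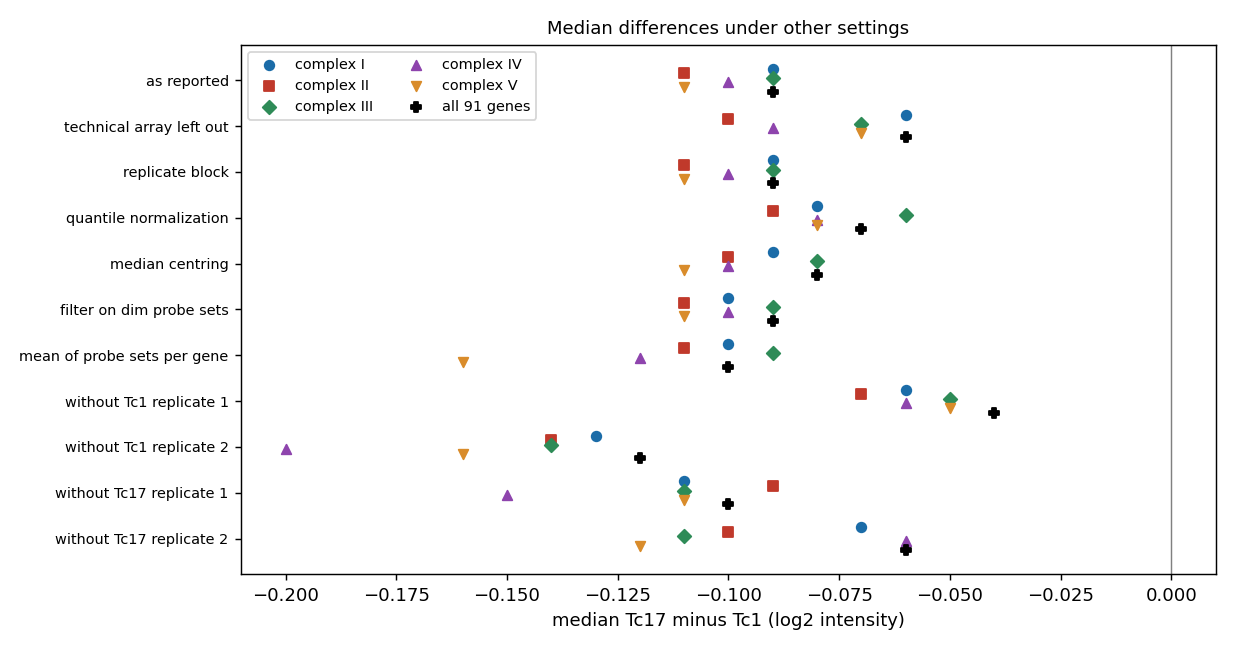
Median difference between Tc17 and Tc1 (log2 intensity) of each complex and of all 91 genes, as reported and under 10 other settings. Every median shown is below 0, and for all 91 genes the one closest to 0 is −0.04 (without Tc1 sample 1).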

How the data were processed

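The authors' deposited values were log2 intensities of 41345 probe sets on 6 arrays, for which the submitters' processing notes name RMA and Partek without a version. The sources used here do not give the annotation release the authors used. Symbols came from the platform annotation (1 symbol for 23521 probe sets), and probe sets of several symbols were left out. Differences were fitted over all probe sets with limma 3.58.1 in R 4.3.3 (lmFit, eBayes, Benjamini-Hochberg, threshold 0.05; residual degrees of freedom 2, prior 2.63), with no filter. This procedure was tested on simulated data with independent noise, no sample effect and added differences larger than those of most members. That test cannot speak to small differences or to a shift of a whole sample. SE is moderated. Members were split by complex and class by hand. The members and lists were chosen with earlier results of these data known. Genes named were the called members, the 4 largest and the smallest difference per complex, the paralog families, Cyc1, Cycs and the Sdh genes, the 3 largest of the assembly and other genes, and the called and 2 largest uncalled genes of each list. Promoters were RefSeq windows of GRCm38.p6 and matched 73 members by gene identifier. Alternatives covered the technical array, a block, normalization, a filter on level, eBayes settings, probe-set averaging and each sample left out. Figures were drawn with matplotlib 3.10.9.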

Additional observations from a re-analysis of the deposited data

How the results depend on the processing

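With 2 samples per group the number of arrays limits precision. Over all probe sets limma called 418, and it called 2318 with 6 separate arrays, 2074 with the sample as a random block, 648 with a filter on dim probe sets, 874 with probe sets averaged per gene, and 48 to 125 with 1 sample left out. The replicate number as a block gave 1535. Same-numbered samples deviated together (r = 0.313 over probe sets), but they share only a number in the labels.

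Members called higher numbered 1 as reported, 2 with separate arrays, the random block or averaged probe sets, and 0 with any sample left out. Members called lower, of the same 91, numbered 0 as reported, 2 with separate arrays or averaged probe sets, and 1 with the random block or the replicate block. Calls in the 8 lists numbered 1 as reported, 10 with separate arrays, 8 with the random block, 4 with the replicate block, 3 with the filter or averaged probe sets, and 0 with any sample left out. The calls over all 41345 probe sets also rose from 418, to 2318 with separate arrays, 2074 with the random block and 1535 with the replicate block. With the filter they were 648 of 20697 probe sets, and with averaged probe sets 874 of 22180 genes. Those settings adjusted over fewer tests, so their counts are not like for like. The causes were not tested.

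Leaving out 1 sample moved the medians to −0.12 to −0.04 (all members), −0.14 to −0.07 (complex II), −0.14 to −0.05 (III), −0.20 to −0.06 (IV) and −0.16 to −0.05 (V). Complex IV was −0.04 with every gene of its name. Of the 13 other probe sets of members, 11 had the sign of the chosen one, and those of Atp5d (−0.35 against 0.03) and Ndufa8 (−0.32 against 0.04) did not.

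Uncalled values near 0 changed sign. Cox7b was 0.01 with separate arrays, the random block or quantile normalization and 0.15 without the technical arrays. Cox8c was 0.00, 0.00 and 0.02 with separate arrays, the random block and no technical arrays. Cox6b2 was 0.00 after median centring, and Cox6a2 and Ndufs3 were −0.01 and −0.04 after quantile normalization. With 1 sample left out, ranges crossing 0 were −0.26 to 0.05 (Cox4i1), −0.05 to 0.12 (Cox6a2), −0.09 to 0.09 (Cox6b2), −0.10 to 0.05 (Cox7b), −0.08 to 0.03 (Cox8c), −0.39 to 0.09 (Ndufa4), −0.07 to 0.02 (Ndufa4l2), −0.04 to 0.37 (Ndufaf4), −0.02 to 0.02 (Ndufs3), −0.01 to 0.03 (Sdha) and −0.01 to 0.06 (Uqcrc2). Other uncalled differences kept their sign but ran from −0.43 to −0.04 (Ndufa5), −0.45 to −0.13 (Ndufb3), −0.50 to −0.13 (Atp5o), −0.38 to −0.09 (Uqcrq) and −0.31 to −0.07 (Ndufaf7).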
